A study of Mus musculus with 8 samples.

Results

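Reprogrammed adipocytes (array titled RAD_p1) were compared with undifferentiated mesenchymal stem cells, MSCs (arrays titled MSC_d0 and MSC_p4), to ask how far cells that had been adipocytes and were then reprogrammed still differ from the stem cells. The comparison uses 3 of the 8 Illumina expression arrays of the series, chosen by the cell type in the labels: 1 array of reprogrammed adipocytes and 2 of MSCs. All 8 arrays carry the source name of adult mouse bone marrow mesenchymal stem cells of strain C57BL/6J. The other arrays are 1 each of reprogrammed chondrocytes (RCH_p1), reprogrammed osteocytes (ROS_p1), and differentiated adipocytes (Ad_d7), chondrocytes (Ch_d28) and osteocytes (Os_d21). The agent or method of reprogramming, the meaning of d and p, the passage and the number of animals or cultures behind an array are not given in the labels, so the 1 array of reprogrammed adipocytes stands for 1 preparation of unknown origin within the strain.

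MSCs are progenitors in the marrow stroma from which fat, bone and cartilage cells arise, and they secrete matrix and growth factors which support blood formation. Adipocyte formation is driven by the nuclear receptor PPAR-gamma and by C/EBP-alpha, and mature fat cells are known for lipid droplet proteins and the hormone adiponectin. Bone morphogenetic proteins (BMPs) are secreted ligands that steer the same progenitors between these fates.

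A gene counts here as higher or lower when its difference was at least 1 on a log2 scale (2-fold) against both MSC arrays in the same direction. Values are the authors' deposited log2 intensities, differences were taken after an offset of 16 was added on the linear scale, and a gene counts as measured when 6 or more (log2) was reached by its probe on any of the 8 arrays. By this rule 79 of 9069 genes were lower in reprogrammed adipocytes (0.871%) and 13 were higher (0.143%). Those 92 genes, 1.01% of all measured, are the subject here. The thresholds were passed narrowly at the edge, with Selenop at -1.01 and Map3k7cl at 1.03 from the nearer MSC array just inside, and Rab43 at -0.99 and Chil4 at 0.98 just outside. Since 1 array has no spread of its own, the size of a difference is a description of these arrays.

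No gene passed a test that takes its spread from the MSC arrays, MSC d0 and MSC p4. Their titles differ, and any systematic difference between them enters that spread, so the lack of calls says little. Limma on the 3 arrays, which assumes that the lone array varies as the MSC arrays do, called 0 of 9069 genes at an adjusted p under 0.05 (0%) and 61 at an unadjusted p under 0.05, of which 11 were higher and 50 lower. The lowest unadjusted p was that of Gpx3, at 0.000409 (limma, adjusted p = 1). A limma fit of all 8 arrays pooled by state also called 0, with 39 at an unadjusted p under 0.05. It takes the 3 differentiated lineages as replicates of one state and the other 2 reprogrammed lineages as another, so lineage differences enter its spread and its 0 says little.

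The MSC arrays differ widely from each other, and the reprogrammed adipocytes lay nearer to MSC p4. Against MSC p4 alone 130 genes were at least 2-fold lower (1.43%) and 19 higher (0.21%). Against MSC d0 alone 933 were lower (10.3%) and 702 higher (7.74%), while MSC p4 itself had 728 genes lower and 579 higher than MSC d0. The array of reprogrammed adipocytes and that of MSC p4 had 7225 and 7652 probes at 0, against 4335 on MSC d0, and the part of this in the differences from MSC d0 was not tested.

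**Figure D1:**
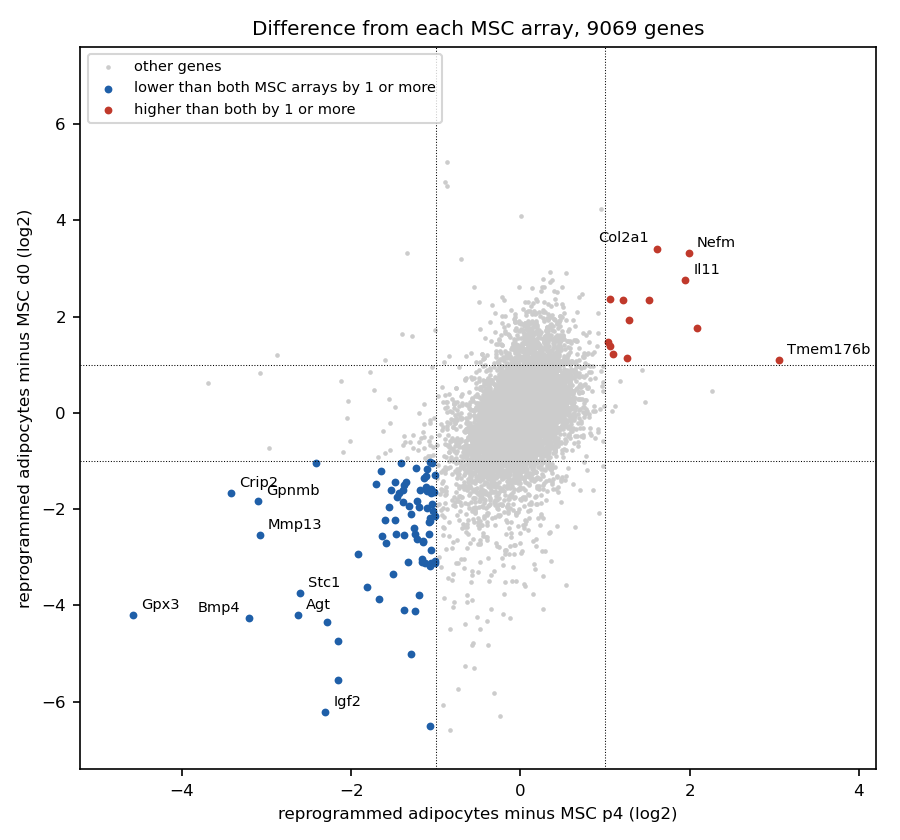
Each point is 1 of 9069 genes, with the log2 difference of reprogrammed adipocytes from MSC p4 on the horizontal axis and from MSC d0 on the vertical axis; dotted lines mark 1 and -1. The 79 genes in blue are lower and the 13 in red higher than both MSC arrays, and the cloud of other genes spreads more along the MSC d0 axis than along the MSC p4 axis.

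Genes of the fat lineage were bright or dim on the array of reprogrammed adipocytes. Of 23 adipogenic regulators with a probe 13 reached a log2 value of 6 there, against 15 on MSC d0 and 12 on MSC p4, and of 33 lipid storage genes and fat cell hormones 12 did, against 12 and 13. Adipoq, which encodes adiponectin, had a log2 intensity of 4.35 in reprogrammed adipocytes, against 5.89 on MSC d0 and 7.47 on MSC p4, while the differentiated adipocytes stood at 14.56. The fatty acid carrier Fabp4 stood at 2.04 in reprogrammed adipocytes, with 3.0 on MSC d0 and 3.06 on MSC p4. Its probe read only 6.84 even in differentiated adipocytes, so its low value tells little. The lipid droplet genes Plin1 and Cidec stood at 3.33 and 3.14 in reprogrammed adipocytes. Pparg had 11.06 in reprogrammed adipocytes, against 10.33 on MSC d0 and 11.05 on MSC p4, and Cebpa had 6.14, against 5.96 and 6.0. Of the fat cell markers given here Adipoq, Fabp4, Plin1 and Cidec were thus under the level of 6 in reprogrammed adipocytes. Pparg, Cebpa and the lipase Lpl (12.30, against 14.23 on MSC d0 and 13.62 on MSC p4) were above it.

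MSC genes were mixed in the same array. The hyaluronan receptor Cd44 had 11.13 in reprogrammed adipocytes, against 10.06 on MSC d0 and 10.58 on MSC p4, and Nt5e (CD73) had 8.38, against 5.37 and 8.24. Thy1 (3.38) and Eng (5.30) were under 6 on all 3 arrays. The niche chemokine Cxcl12 stood at 13.28 in reprogrammed adipocytes, against 14.43 on MSC d0 and 13.83 on MSC p4. Of 25 macrophage and monocyte markers with a probe 1 reached a log2 value of 6 in reprogrammed adipocytes, against 3 on MSC d0 and 1 on MSC p4, and their summed log2 levels were 9.13, 9.89 and 9.07. Blood lineage markers reached 6 for 0 of 18 in reprogrammed adipocytes, against 2 on MSC d0 and 1 on MSC p4 (summed log2 levels 7.72, 8.91 and 7.89). Among the defining markers Ptprc (CD45) stood at 3.69, 3.58 and 2.95 and Hba-a1 at 0, 3.78 and 3.38 in that order of arrays. Endothelial markers had 1 of 16 at the level on each of the 3 arrays (9.45, 8.99 and 9.13). Pecam1 (CD31) stood at 4.95, 3.93 and 4.78. Osteoclast markers had 2 of 12 on each (9.24, 10.16 and 9.89), with Acp5 at 2.70, 2.74 and 0. The 2 measured osteoclast markers were lower than on both MSC arrays, with medians of -1.0 (MSC d0) and -0.79 (MSC p4). Neither passed the 2-fold rule.

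The lowest genes of reprogrammed adipocytes, relative to the nearer MSC array, were Gpx3, Bmp4, Agt, Stc1 and Mmp13. Gpx3, the secreted selenium-dependent glutathione peroxidase of plasma, had a log2 intensity of 5.99 in reprogrammed adipocytes, against 10.50 on MSC d0 and 10.89 on MSC p4. It was at least 18.3-fold lower than the nearer MSC array, and since it lay just under the level of 6 the fold is a bound. Both other reprogrammed arrays carried it at MSC levels or above, at 10.98 in chondrocyte-derived and 11.66 in osteocyte-derived cells, and the differentiated adipocytes had 7.69, so that the adipocyte-derived array was the lowest of all 8. Selenop, the selenoprotein that carries selenium in plasma, had 8.96 in reprogrammed adipocytes, against 12.11 on MSC d0 and 9.99 on MSC p4.

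Bmp4, a ligand that promotes both bone and fat commitment of progenitors, stood at 4.17 in reprogrammed adipocytes, against 9.32 on MSC d0 and 8.22 on MSC p4, at least 3.93-fold lower than the nearer MSC array. Reprogrammed chondrocytes had 7.28, reprogrammed osteocytes 10.09 and differentiated osteocytes 11.42. In the list of BMP and TGF-beta ligands, receptors, inhibitors and targets Bmp4 was the 1 gene of 35 measured that passed the rule. By that rule 0.871% of all genes were lower and 0.143% higher. The list's median difference from the MSC mean was -0.18, beside -0.02 over all genes. The 7 measured receptors lay within 1 of MSC p4, among them Bmpr1a at 10.13 against 10.65 and 9.97 and Bmpr2 at 9.73 against 10.29 and 10.03 on MSC d0 and MSC p4. The direct BMP target Id1 stood at 9.85 in reprogrammed adipocytes, against 7.46 on MSC d0 and 9.70 on MSC p4, and so differed from MSC p4 by 0.15. The BMP antagonist Grem1 had 6.52, against 9.04 and 7.06. Bmp8a, a ligand outside the list that was picked out after its values had been seen, had 3.52 in reprogrammed adipocytes, against 6.85 on MSC d0 and 5.38 on MSC p4.

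Mmp13, the collagenase that cuts fibrillar collagen in cartilage and bone, had 7.0 in reprogrammed adipocytes, against 9.68 on MSC d0 and 10.23 on MSC p4, which is 5.79-fold lower than the nearer MSC array. All the other 7 arrays were higher, from 8.77 in differentiated osteocytes to 14.74 in differentiated chondrocytes. Its other probes measured a smaller gap, at -1.05 and -0.41 from the nearer MSC array, on dimmer signals. It was the 1 gene of 22 measured metalloproteinases, ADAMTS proteases and inhibitors that passed the rule (0.871% of all genes were lower). The list's median difference was -0.35, beside -0.02 over all genes. The gelatinase Mmp2 had 11.49 in reprogrammed adipocytes, against 12.65 on MSC d0 and 11.15 on MSC p4, and the inhibitor Timp1 had 13.46, against 13.57 and 12.86.

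Il11, a cytokine of the interleukin-6 family that acts through gp130 and is known to restrain fat cell formation, went the other way. Its log2 intensity was 7.11 in reprogrammed adipocytes, against 2.77 on MSC d0 and 4.59 on MSC p4. Both MSC arrays lay under 6, so it was at least 1.93-fold higher and a 2-fold difference was not established. The highest of the other arrays was the differentiated chondrocytes, at 6.81, and the reprogrammed chondrocytes and osteocytes had 4.85 and 4.23. No other member of its family among the 11 measured passed the rule, by which 0.143% of all genes were higher and 0.871% lower. The list's median was -0.24, beside -0.02 over all genes. Lif had 5.26 in reprogrammed adipocytes, against 5.40 on MSC d0 and 5.30 on MSC p4, Il6 had 5.43, against 5.13 and 6.31, and the shared receptor subunit Il6st (gp130) had 6.90, against 7.23 and 6.55. The feedback inhibitor Socs3 stood at 9.61, against 10.48 and 9.67.

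**Figure D2:**
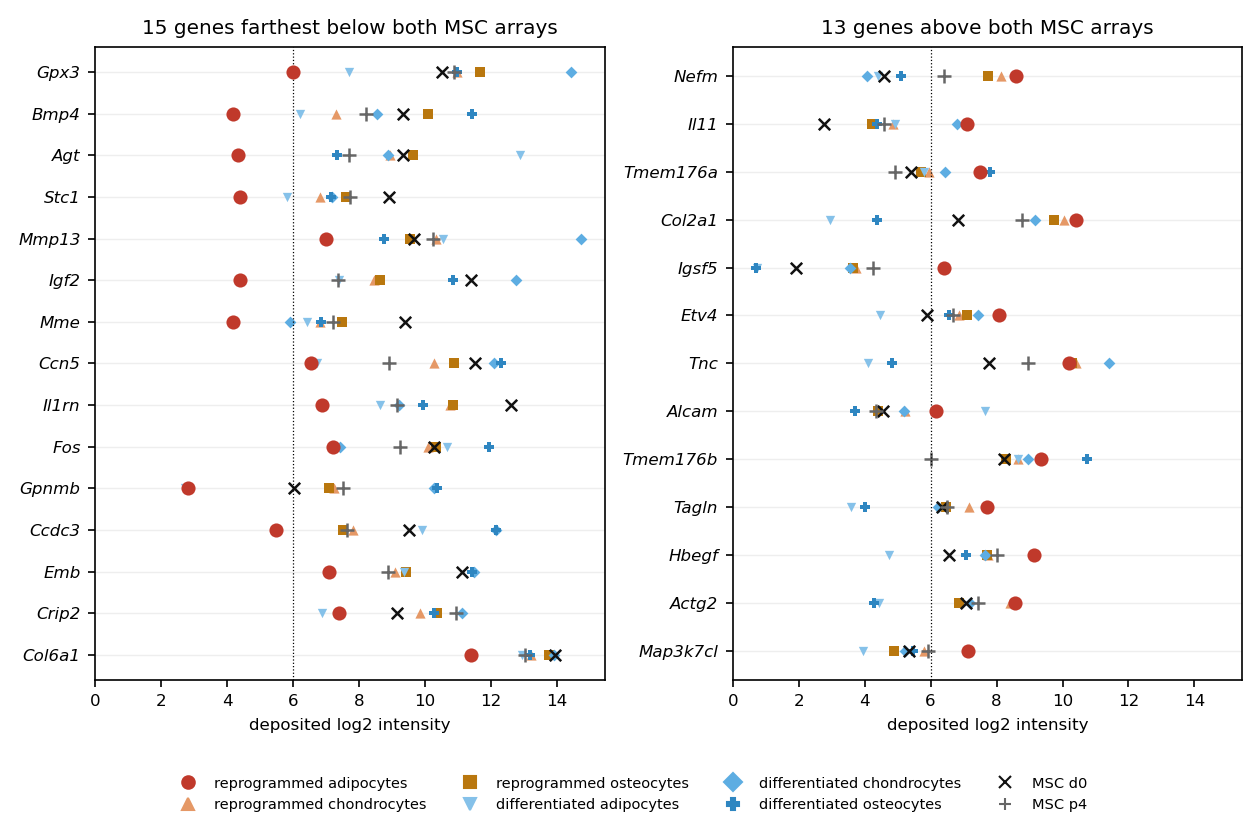
Deposited log2 intensity (horizontal axis) of the 15 genes farthest below both MSC arrays (left) and of the 13 genes above both (right), 1 symbol per array; the dotted line marks the level of 6. The large red points of reprogrammed adipocytes lie left of both MSC symbols in the left panel and right of both in the right panel, and Gpx3 at 5.99 and Mmp13 at 7.0 lie left of every other array.

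The promoters of 4 genes past the rule are printed for the sites they hold. The first 3 hold one for AP-1, of which 1 subunit gene also passed the rule, and the fourth belongs to an early gene past it. Fos encodes a subunit of AP-1, a dimer that binds TGANTCA (N is any base), and Egr2 is a standard target of serum response factor, which binds the CArG box. Il11 had 2 different windows and Egr2 had 5, and the window printed was picked for having the most matches. Each line gives the 150 bases before the RefSeq start, 5′ to 3′ on the gene's strand (build GRCm38.p6), with the matching site in capitals.
Il11 (chr7:4778142-4778291, minus strand): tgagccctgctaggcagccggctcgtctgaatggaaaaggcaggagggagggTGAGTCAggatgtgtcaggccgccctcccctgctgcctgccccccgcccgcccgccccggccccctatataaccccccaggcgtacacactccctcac
Mmp13 (chr9:7272364-7272513, plus strand): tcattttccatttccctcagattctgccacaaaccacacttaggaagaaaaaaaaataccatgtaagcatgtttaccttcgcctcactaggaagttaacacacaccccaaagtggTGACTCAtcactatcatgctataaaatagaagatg
Col6a1 (chr10:76726045-76726194, minus strand): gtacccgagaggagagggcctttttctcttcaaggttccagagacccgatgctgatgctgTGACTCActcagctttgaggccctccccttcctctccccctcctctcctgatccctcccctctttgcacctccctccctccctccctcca
Egr2 (chr10:67537416-67537565, plus strand): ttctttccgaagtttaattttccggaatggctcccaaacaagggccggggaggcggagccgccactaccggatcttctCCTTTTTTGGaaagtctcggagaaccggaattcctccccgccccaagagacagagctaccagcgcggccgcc

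The AP-1 letters lie 98 to 92 bases before the start in Il11, which was higher, 35 to 29 bases before it in Mmp13 and 90 to 84 bases before it in Col6a1, which were lower. RefSeq promoters were matched by symbol for 64 of the 92 genes. In windows of 250 bases before a start, both strands searched, TGANTCA was present for 10 of 59 lower genes (16.9%) and 1 of 5 higher genes, among them the lower genes Il1rn, Mme and Srpx2. Over all genes measured 412 of 7387 held it (5.58%), and 6.75% of all 32851 windows did. A CArG box was present for 3 of 59 lower genes (Egr2, Igf2 and Creld1; 5.08%), 0 of 5 higher genes and 1.45% of all genes measured. These matches describe letters and show no binding, and no test was made of the shares.

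Immediate early genes, which are switched on within minutes by growth factor and stress signals, had 4 of 19 measured members lower (0.871% of all genes) and 0 higher (0.143%). Fos stood at 7.21 in reprogrammed adipocytes, against 10.28 on MSC d0 and 9.25 on MSC p4, the zinc finger factors Egr1 at 12.72, against 14.07 and 13.86, and Egr2 at 7.23, against 9.09 and 8.78. Dusp1, a phosphatase that switches MAP kinases off, had 10.32 in reprogrammed adipocytes, against 11.93 on MSC d0 and 11.86 on MSC p4. Each of these 4 had a gap between the MSC arrays that was smaller than its distance from either of them. Other members did not follow, with Jun at 8.92, against 8.74 and 8.51, Junb at 10.08, against 10.10 and 9.87, and Egr3 at 9.96, against 10.44 and 10.09. The list's median difference was -0.28, beside -0.02 over all genes.

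Chemokines, cytokines and NF-kB targets had 4 of 23 measured members lower (0.871% of all genes) and 0 higher (0.143%). Il1rn, the interleukin-1 receptor antagonist, had 6.86 in reprogrammed adipocytes, against 12.60 on MSC d0 and 9.16 on MSC p4, and was the lowest of the 8 arrays. The neutrophil chemokine Cxcl1 had 8.16, against 10.94 and 9.80, the monocyte chemokine Ccl7 had 10.65, against 11.85 and 12.31, and Nfkbiz, an inducible regulator of NF-kB, had 7.74, against 9.48 and 8.85. The list's median difference was -0.68, but -0.13 against MSC p4 alone. With members under 6 on the dimmer side set to their bound, or to no difference without one, it was -0.11.

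Collagen VI, the beaded microfibril of the pericellular matrix, was lower through both measured chains. Col6a1 had 11.38 in reprogrammed adipocytes, against 13.95 on MSC d0 and 13.02 on MSC p4, and Col6a2 had 8.17, against 11.60 and 9.72. A second bright probe of Col6a1 gave -1.76 from the nearer MSC array, beside -1.63 for the first. Col3a1, a fibrillar collagen, had 9.06, against 11.49 and 10.35. These were 3 of 33 measured collagens and collagen-modifying enzymes (0.871% of all genes were lower), whose median was -0.26. Col1a1 stood at 10.09 in reprogrammed adipocytes, within the MSC values of 10.41 and 9.25.

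Among proteoglycans and matricellular genes 3 of 29 measured were lower (0.871% of all genes) and 1 higher (0.143%). The small leucine-rich proteins Omd (osteomodulin) and Ogn (osteoglycin) had 6.19 and 11.19 in reprogrammed adipocytes, against 10.56 and 14.32 on MSC d0 and 7.75 and 12.32 on MSC p4. Ccn5, a matricellular protein of the CCN family, had 6.55, against 11.51 and 8.89, and differentiated adipocytes were close to it at 6.71. Tnc, the wound and tendon glycoprotein tenascin-C, had 10.19, against 7.76 and 8.96, and the reprogrammed chondrocytes and osteocytes reached 10.41 and 10.28. Col2a1, the main collagen of cartilage, had 10.41 in reprogrammed adipocytes, against 6.83 on MSC d0 and 8.76 on MSC p4, the highest of 8 arrays, with reprogrammed chondrocytes and osteocytes at 10.05 and 9.74. It was the 1 of 8 measured cartilage genes past the rule. Sox9, its activator, stood at 8.73, against 10.57 and 8.41.

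**Figure D3:**
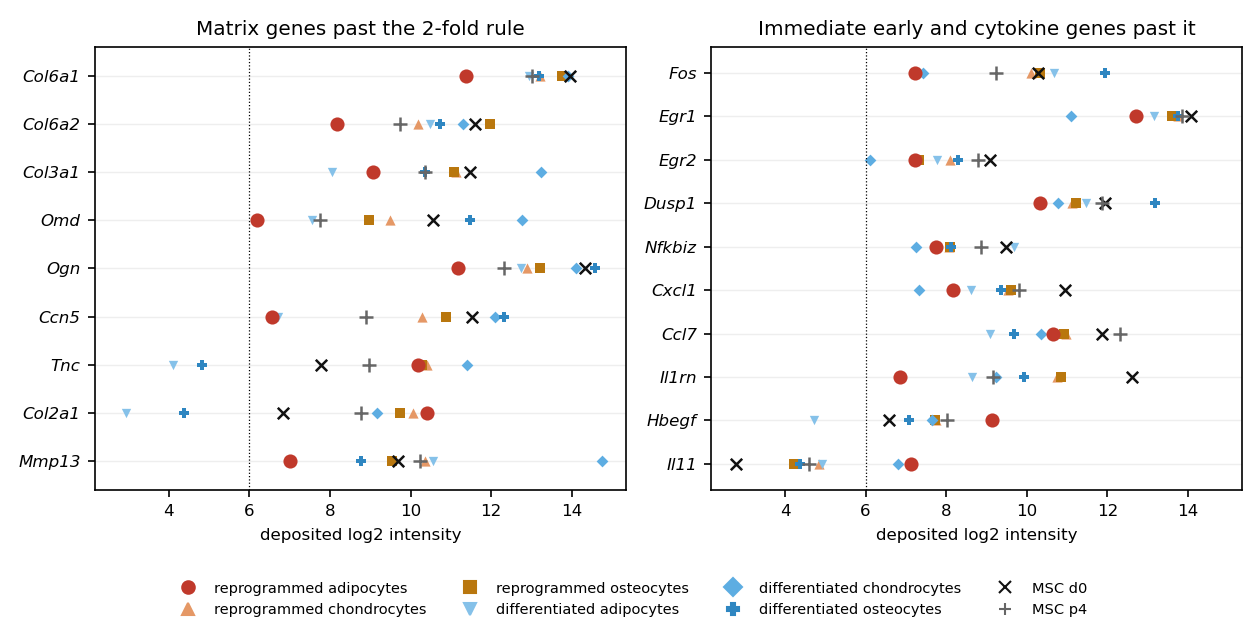
Deposited log2 intensity (horizontal axis) on each of 8 arrays for matrix genes (left) and immediate early, cytokine and growth factor genes (right) that passed the 2-fold rule; the dotted line marks the level of 6. Collagen VI and the early genes Fos, Egr1, Egr2 and Dusp1 lie below both MSC symbols in reprogrammed adipocytes, while Tnc, Col2a1, Hbegf and Il11 lie above both.

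Secreted hormones and growth factors were among the lowest genes too. Agt, the angiotensin precursor that fat cells also make, had 4.33 in reprogrammed adipocytes, against 9.33 on MSC d0 and 7.70 on MSC p4, while differentiated adipocytes had the highest level of the 8 arrays, 12.89. Stc1, the calcium-regulating hormone stanniocalcin, had 4.40, against 8.92 and 7.72, and Igf2, the fetal insulin-like growth factor, had 4.38, against 11.41 and 7.37. Stc1 and Igf2 were 2 of 15 measured genes of the IGF list that were lower (0.871% of all genes). Kitl, the stem cell factor that marrow stroma supplies to blood progenitors, had 6.37, against 7.96 and 7.88, and was lowest of the 8 arrays. Its receptor Kit, in the list of blood lineage markers, had 4.26, against 7.52 and 6.07. Rspo2, which potentiates Wnt signals, had 7.74, against 10.92 and 8.81, as 1 of 23 measured Wnt genes. Esm1, a proteoglycan known from endothelium, had 9.02, against 10.52 and 10.75. On the higher side Hbegf, an EGF receptor ligand, had 9.13, against 6.57 and 8.02, and Etv4, an ETS factor induced by FGF and MAP kinase signals, had 8.08, against 5.89 and 6.67. Both were highest of the 8 arrays in reprogrammed adipocytes.

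The remaining leading genes on the lower side encode surface and other proteins. Mme, the membrane peptidase neprilysin (CD10), had 4.16 in reprogrammed adipocytes, against 9.40 on MSC d0 and 7.22 on MSC p4, and its second probe was lower by the same rule, at -1.46 from the nearer MSC array. Gpnmb, a lysosomal and melanosomal glycoprotein, had 2.81, against 6.04 and 7.50, and Emb, an immunoglobulin-family chaperone of lactate transporters, had 7.09, against 11.11 and 8.88. Ccdc3, a secreted coiled-coil protein, had 5.48, against 9.52 and 7.63. Crip2, a LIM domain protein, had 7.40, against 9.16 and 10.95. All of these lay on or next to the lowest place of the 8 arrays.

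On the higher side Nefm, the medium neurofilament, had 8.58 in reprogrammed adipocytes, against 4.58 on MSC d0 and 6.41 on MSC p4, with 3 probes all past 2-fold. Reprogrammed chondrocytes and osteocytes had 8.14 and 7.74. The neighbouring membrane genes Tmem176a and Tmem176b had 7.50 and 9.36 in reprogrammed adipocytes, against 5.40 and 8.22 on MSC d0 and 4.91 and 6.02 on MSC p4. Alcam, an adhesion molecule used as an MSC surface marker (CD166), had 6.15, against 4.55 and 4.35, and Igsf5, a junction protein, had 6.40, against 1.91 and 4.25. Map3k7cl stood at 7.14, against 5.33 and 5.93. For Alcam, Igsf5 and Map3k7cl both MSC arrays lay under 6. They were at least 1.09-fold, 1.25-fold and 1.96-fold higher in reprogrammed adipocytes, so a 2-fold difference was not established. Smooth muscle and contractile genes had 2 of 18 measured members higher (0.143% of all genes) and 0 lower (0.871%). Tagln (transgelin) had 7.71, against 6.33 and 6.48, and the smooth muscle actin Actg2 had 8.56, against 7.08 and 7.43, while Acta2 stood at 14.65, against 14.62 and 14.48.

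Genes of lipid storage and of detoxification had few members past the rule. Lpl, the lipase that releases fatty acids from lipoproteins, had 12.30 in reprogrammed adipocytes, against 14.23 on MSC d0 and 13.62 on MSC p4. With Adipoq it made 2 of 27 measured lipid storage genes and fat cell hormones that were lower (0.871% of all genes, list median -0.13). No adipogenic regulator of 19 measured passed it (median -0.02). Mgst1, a membrane glutathione transferase, had 10.36, against 11.53 and 11.47. With Gpx3 and Selenop it made 3 of 37 measured antioxidant and glutathione genes that were lower (0.871% of all genes, list median -0.11). Gpx1 stood at 13.25, against 13.15 and 13.08, and Gpx4 at 13.12, against 13.07 and 13.28.

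Several groups differed from MSC d0 but hardly from MSC p4. Of 34 measured cell cycle genes 31 were at least 2-fold higher in reprogrammed adipocytes than on MSC d0 (7.74% of all genes) and 0 than on MSC p4 (0.21%), with list medians of 1.58 and 0.14. Of 31 measured interferon response genes 29 were at least 2-fold lower than on MSC d0 (10.3% of all genes) and 1 than on MSC p4 (1.43%), with medians of -2.63 and -0.19. That 1 gene, the antiviral Ifit3, had 7.23 in reprogrammed adipocytes, against 13.89 on MSC d0 and 8.37 on MSC p4. Glycolysis and hypoxia genes had 9 of 20 higher than on MSC d0 and 0 higher than on MSC p4. For the proliferins, placental genes of the prolactin family with near-identical members that can share signal, reprogrammed adipocytes lay between the MSC arrays. Prl2c2 had 12.85 in reprogrammed adipocytes, against 7.53 on MSC d0 and 13.73 on MSC p4, and the median of 5 measured members was 4.71 against MSC d0 and -0.89 against MSC p4.

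**Figure D4:**
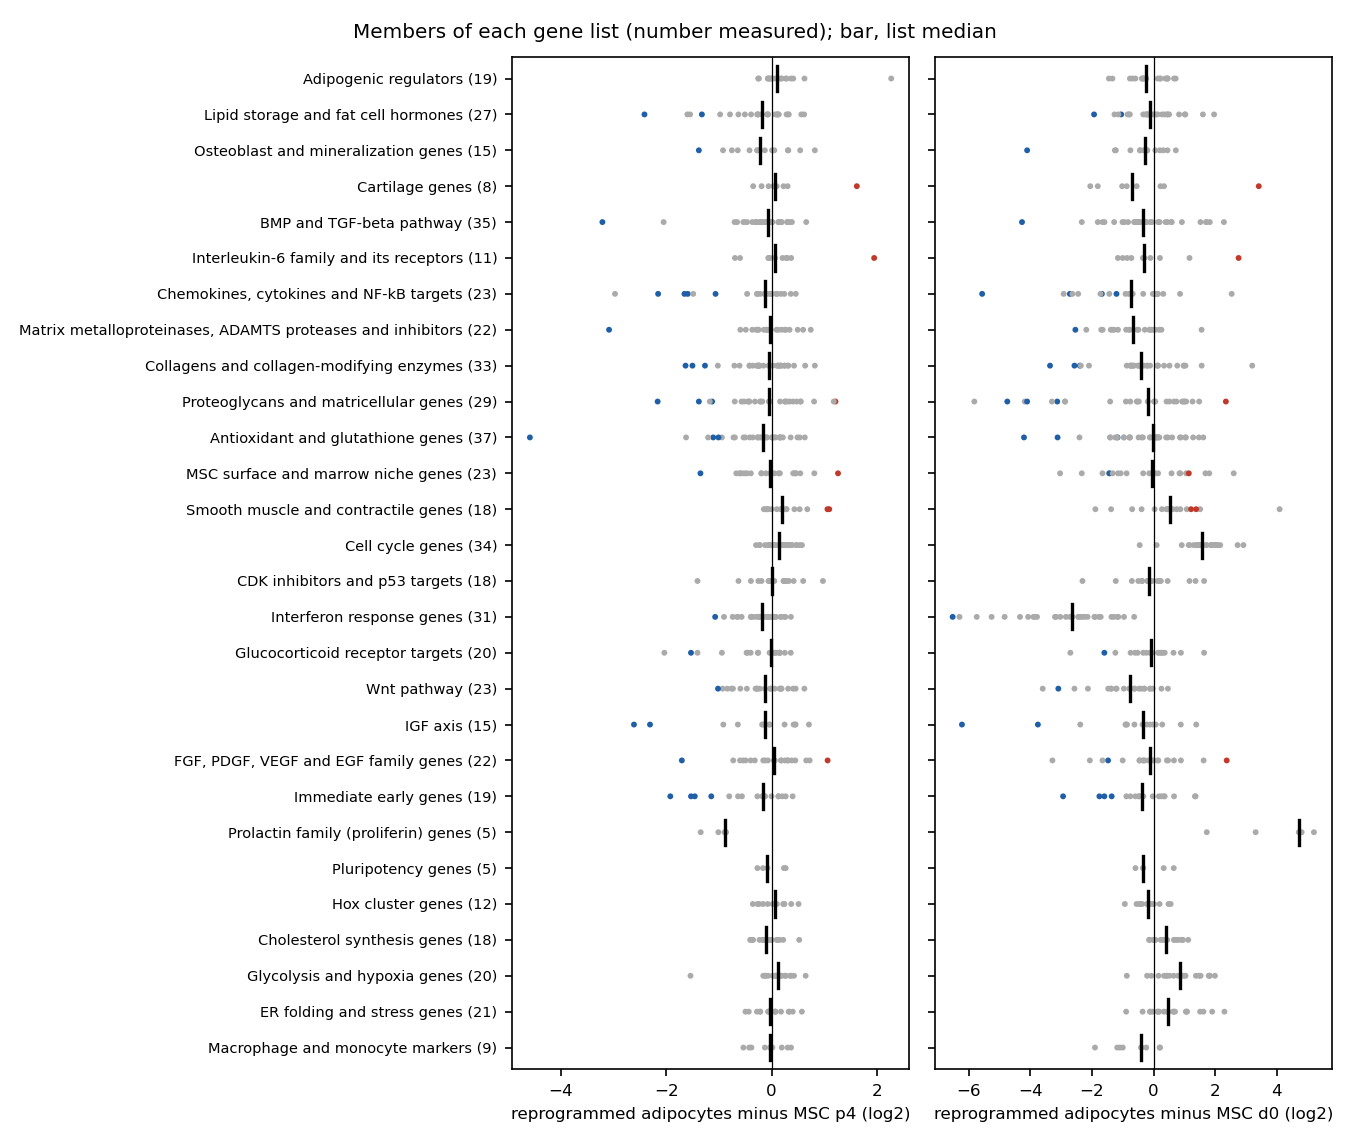
Log2 difference of reprogrammed adipocytes from MSC p4 (left) and from MSC d0 (right) for the measured members of 28 gene lists with at least 5 of them; each point is a gene, blue and red mark genes lower or higher than both MSC arrays, and black bars are list medians. The bars lie between -0.23 and 0.19 against MSC p4 for all lists shown but the prolactin family, at -0.89, and spread from -2.63 to 4.71 against MSC d0.

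Most other lists had at most 1 member past the rule, by which 0.871% of all genes were lower and 0.143% higher. Glucocorticoid receptor targets had 1 of 20 lower, Dusp1, and osteoblast genes 1 of 15, Omd. Sp7, the bone transcription factor osterix, stood at 9.49 in reprogrammed adipocytes, against 9.16 on both MSC arrays. Hox cluster genes (12 measured), pluripotency genes (5), CDK inhibitors and p53 targets (18), cholesterol synthesis genes (18) and ER stress genes (21) had 0. The MSC surface and niche list had 1 higher, Alcam, and 1 lower, Kitl, of 23, and FGF, PDGF, VEGF and EGF genes 1 higher, Hbegf, and 1 lower, Esm1, of 22.

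The genes set apart from MSCs were also compared with the other reprogrammed arrays, which the rule did not use. All 79 lower genes were lower in the adipocyte-derived array than in both the chondrocyte-derived and the osteocyte-derived array, where 34.8% of all genes were, and 58 of them by at least 2-fold, where 2.28% of all genes were. Of the 13 higher genes 12 were higher than in both (36.7% of all genes), the exception being Tnc, and 5 by at least 2-fold (0.386% of all genes). The same array enters both sides of this count and fixed the choice of genes, so it gives no independent support, and limma on 8 arrays pooled by state called 0 genes between reprogrammed adipocytes and the other reprogrammed cells (50 at an unadjusted p under 0.05), a contrast chosen after the data were seen and with the same lineage differences in its spread. In this fit Gpx3 differed by -5.01 (SE 2.23, limma adjusted p = 1) and Il11 by 1.97 (SE 0.77, adjusted p = 1). By the same size rule against both MSC arrays reprogrammed chondrocytes had 1 gene lower and 13 higher, and reprogrammed osteocytes 40 lower and 75 higher. These comparisons share the MSC arrays, and their counts were not tested against each other.

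Other probes of the same genes, which the rule did not use, gave a technical check within the same arrays. Of 42 such probes for 30 genes 41 went the same way against both MSC arrays, the exception being a second probe of Kng2, and 19 of them passed 2-fold against both, where 0.923% of all 13653 named probes did. They are read from the same hybridisations and so say nothing of the spread between preparations. Of the 79 lower genes 28 were under the level of 6 in reprogrammed adipocytes, and of the 13 higher genes 5 were under it on both MSC arrays, so that their folds are bounds. Some bounds from the nearer MSC array are under 2-fold, as for Gpnmb (1.02) and Kit (1.04) on the lower side and Alcam (1.09) on the higher side. For such genes a 2-fold difference was not established. For 11 of the lower genes, Adipoq and Bmp8a among them, an MSC array was under 6 as well, so that no fold from that array was measured.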

How the data were processed

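Biotinylated cRNA was prepared from total RNA and hybridised to Illumina arrays, per the labels' protocols. The values were the authors' deposited log2 intensities of 45281 probes; for software, background correction and normalization the sources used here give nothing, and columns shared a median of 3.90. Values at the low end stop at 0. A table of signals before normalization has 16 value columns whose names match no sample, and was not used.

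Symbols came from the platform annotation (34885 probes with 1 symbol, 18 with several, 10378 unnamed here) and were updated through RefSeq GRCm38.p6 for 34807. Each gene was represented by its probe of highest mean deposited value. Differences were taken on log2(2^x + 16). Where the dimmer side lay under 6, a fold given as "at least" compares the brighter side with 6.32, the level of 6 after the offset. Genes were counted by size and tested with limma 3.58.1 (R 4.3.3, two-sided, Benjamini-Hochberg at 0.05) with 1 array against 2. Groups came from the labels' cell types. Nothing says that arrays are separate cultures, so p-values reflect array-to-array spread alone, which may be technical. On simulated data (9069 genes) limma found all 100 genes shifted by 4 (log2) and 69 of 100 shifted by 2, with 9 false calls. The simulation gave every gene the same spread, whereas spread differs between genes on the real arrays. Its counts therefore do not show how many such shifts the real fit would find.

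Named genes were the 15 largest per direction (13 existed on the higher side), up to 4 of each of 31 lists, and markers. The comparison, lists and rules were chosen with earlier results of these data known. Other genes were picked after their values were seen, among them list members given for contrast. Runx2 and Ly6a were not analysed here. Alternatives were each MSC array alone, other offsets, levels and probe rules.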

Additional observations from a re-analysis of the deposited data

Results flagged for a closer look

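Named genes past the rule were searched for those on opposite sides of both MSC arrays in reprogrammed adipocytes and in the other reprogrammed cells. Gpx3 and Adipoq stood out because reprogrammed adipocytes lay below both MSC arrays while reprogrammed chondrocytes and osteocytes lay above both. Other genes past the rule shared this pattern, among them Gas6, Nrep, Anxa8 and Trem2. Gas6 had 7.76 in reprogrammed adipocytes, against 9.88 on MSC d0 and 8.85 on MSC p4. Reprogrammed chondrocytes and osteocytes had 10.26 and 10.76. Each of the reprogrammed cell types is 1 array, and the 8-array limma fit pooled by state gave reprogrammed adipocytes minus the other reprogrammed cells as -5.01 for Gpx3 (SE 2.23) and -3.24 for Adipoq (SE 2.22), both with an adjusted p of 1. That fit takes the other lineages of a state as replicates. For Gpx3 the difference from the nearer MSC array was -4.20 in reprogrammed adipocytes, and the others stood 0.09 to 1.15 above the MSC arrays. For Adipoq it was -1.05 on the offset scale, but reprogrammed adipocytes (4.35) and MSC d0 (5.89) were both under 6, so its size was not measured. Reprogrammed chondrocytes (8.58) and osteocytes (8.13) were above MSC p4 (7.47).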

How the results depend on the processing

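The count of 79 lower and 13 higher genes depends on the offset, the level and the MSC array. With an offset of 0 it was 189 lower and 35 higher, and with an offset of 64 it was 41 and 6. With a level of 8 there were 7 higher, and with no filter 25. At a difference of at least 2 there were 9 lower and 0 higher. Leaving out 1 MSC array gave 130 to 933 lower and 19 to 702 higher genes, the larger counts being those against MSC d0 alone. Limma called 0 genes in each of 5 other fits run, with 19 to 456 genes at an unadjusted p under 0.05, and the 3 of these that pool arrays by state carry lineage differences in their spread. The 79 and 13 genes remained in the counts with an offset of 0, with no filter and with either MSC array alone. With an offset of 64 the list of 41 and 6 held members of the 79 and 13. Apart from the count with no filter, these outcomes follow from the rule and are no sign of stability. A larger offset can only shrink a difference, and the rule already asks for 2-fold against each MSC array. Dropping the filter could remove a gene only by changing the probe that represents it. Averaging all probes of a gene kept 68 of the 79 and 12 of the 13. No difference of a named gene past the rule changed sign with either MSC array alone or with either offset. That too was fixed in advance, since the rule asks for the same direction against both MSC arrays and an offset cannot reverse a difference. With a level of 8 no blood lineage marker was left, so that list had no median there. Dim probes limit what can be told: values under 6 give only bounds. No paired analysis was possible because the labels give no replicate numbers and reprogrammed adipocytes have 1 array.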
